A study of Homo sapiens with 60 samples.

Results

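The 55 genes described here encode the nucleolar machinery that makes ribosomes. They were taken by name from a deposited expression table of 38342 gene names and comprise RNA polymerase I and its factors, rRNA-modifying and processing proteins, and assembly factors of both ribosomal subunits. All 55 names are in the table, and 54 passed the filter on low values (at least 1 FPKM in 3 or more libraries), as did 15866 genes in all. PWP2, which encodes a processome protein, was above 0 in 2 of 60 libraries, at no more than 0.0103 FPKM, and was not tested. FPKM is the number of fragments scaled by gene length and by library depth, so that levels can be set side by side between genes.

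The series profiled polyadenylated RNA of MDA-MB-231, an established line of triple-negative breast cancer cells. The treated cells received BAY2506856, a compound known here by its code name, at 100, 300 or 1000 nM for 1, 3, 6 or 24 h, with 3 libraries for each dose and time (36 in all). The control cells received the vehicle DMSO for the same times, with 6 libraries at each time (24 in all). No other treatment or genetic change is given in the labels, and all groups share the 1 line. The design text mentions harvest at 24 h only, whereas the labels give 4 times. The labels do not say whether libraries of a group came from separate cultures, so p-values measure only the spread between libraries, which may be technical.

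A ribosome is built in the nucleolus. RNA polymerase I transcribes the long rRNA precursor there. Small nucleolar ribonucleoproteins (snoRNPs) and an enzyme set modify the precursor, the small subunit processome cuts it, and further factors fold and trim the precursors of the small (40S) and large (60S) subunits before export. In many cell types the genes of this pathway are expressed more in proliferating than in resting cells, and a number of them are known targets of the transcription factor MYC.

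Depth ran from 475370 to 86491494 reads, with 3 libraries under 2000000. Over the 60 libraries the median number of reads on a tested member lay between 36.5 (PPAN) and 11834 (NPM1), and 13 members had under 20 reads in at least 1 library. The libraries fall into 3 types that the labels do not name. The types differ in an index of 10 pseudogenes and in the mitochondrial message MT-ND6: type 1 has 41 libraries, type 2 has 13 spread over treated and DMSO cells, and type 3 has 6, all DMSO at 1 h or 3 h. At 1000 nM and 24 h replicates 1 and 3 are of type 2, as is DMSO replicate 2, the shallowest library of all. Results were therefore also computed with a model term for each type and within type 1, where the lone 1000 nM library at 24 h is assumed to vary like the other groups. The cell line markers VIM, CD44, CAV1, AXL and LGALS1 were at 68.8 FPKM or more in every library. Of the luminal markers, ESR1, PGR and FOXA1 were at or below 0.0432 FPKM, CDH1 at or below 1.09, GATA3 at 1.34 to 5.58 and EPCAM at 4.43 to 16.3. Of the markers of other cell types, PTPRC, CD3E and CDH5 were at or below 0.101 FPKM and MBP was at 6.50 to 13.5.

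Nearly the whole set was lower in cells treated for 24 h, and part of it at 6 h, while no member was called at 1 h or 3 h. Changes are log2 fold changes on the log2(FPKM + 0.5) scale, which understates changes of low genes, and a gene is called at a Benjamini-Hochberg adjusted p below 0.05 in limma, adjusted over all genes tested. At 24 h, 41 of the 54 members were lower at 100 nM, 49 at 300 nM and 49 at 1000 nM, where over all genes 9.2%, 14.2% and 15.6% were called lower. The median change of the members was -0.52, -0.72 and -0.72, and that of all genes 0.05, 0.05 and 0.03. A single member was called higher at 24 h, UBTF at 1000 nM, where 19.1% of all genes were called higher. At 6 h the counts were 7, 12 and 19 at 100, 300 and 1000 nM, against 0.655%, 1.11% and 1.3% of all genes, with member medians of -0.22, -0.24 and -0.30 and all-gene medians of 0.01, -0.01 and 0.00.

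At 1 h limma called 0 members at each dose, with 2, 0 and 6 below an unadjusted p of 0.05 at 100, 300 and 1000 nM. At 3 h it called 0 again, with 5, 4 and 3 below 0.05. The limma-voom fit on reads recovered from the FPKM values also called 0 at both times. A fit with array weights, which stopped before it converged, called 33 members at 1000 nM and 1 h (12 lower, 21 higher), where it called 40.2% of all genes, and 13, 11 and 15 at 100, 300 and 1000 nM and 3 h, where it called 23.3%, 19.3% and 24.0% of all genes. Over all genes 0.0%, 0.0% and 0.0% were called lower at 1 h, and 0.0693%, 0.101% and 0.107% at 3 h. The members' median changes lay between -0.01 and 0.07 at 1 h and between -0.07 and -0.03 at 3 h.

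**Figure D1:**
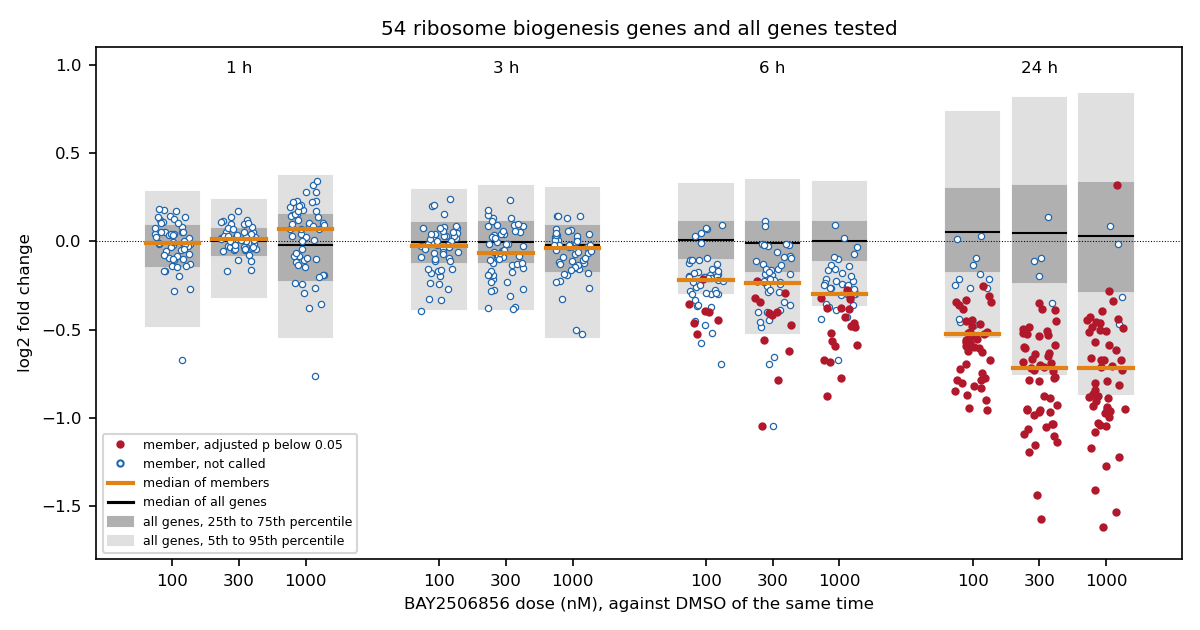
Log2 fold change of the 54 tested members at each dose (x axis, nM) and time, each against DMSO of the same time. Red points were called, open points were not, the orange bar is the members' median, the black line the median of all 15866 genes, and the grey boxes their 25th to 75th and 5th to 95th percentiles. The orange bar lies near the black line at 1 h and 3 h and lies at -0.72 at 1000 nM and 24 h.

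Among single libraries, 36 of 54 members at 1000 nM and 24 h had all 3 treated libraries below all 6 DMSO libraries, against 10.6% of all genes. At 300 nM the count was 39 (10.9% of all genes) and at 100 nM 38 (12.1%). At 6 h the counts were 22, 15 and 30 at 100, 300 and 1000 nM, against 3.43%, 2.77% and 4.06% of all genes. FPKM is a share of each library's reads, so a smaller share of these messages in every cell and a loss in some of the cells cannot be told apart. The summed level of the 13 mitochondrially encoded messages also moved at 24 h, to 14015 to 17742 FPKM at 100 nM, 16756 to 20170 at 300 nM and 16032 to 17859 at 1000 nM, with 11409 to 14857 in DMSO cells. Its part in the members' change was not tested.

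**Figure D2:**
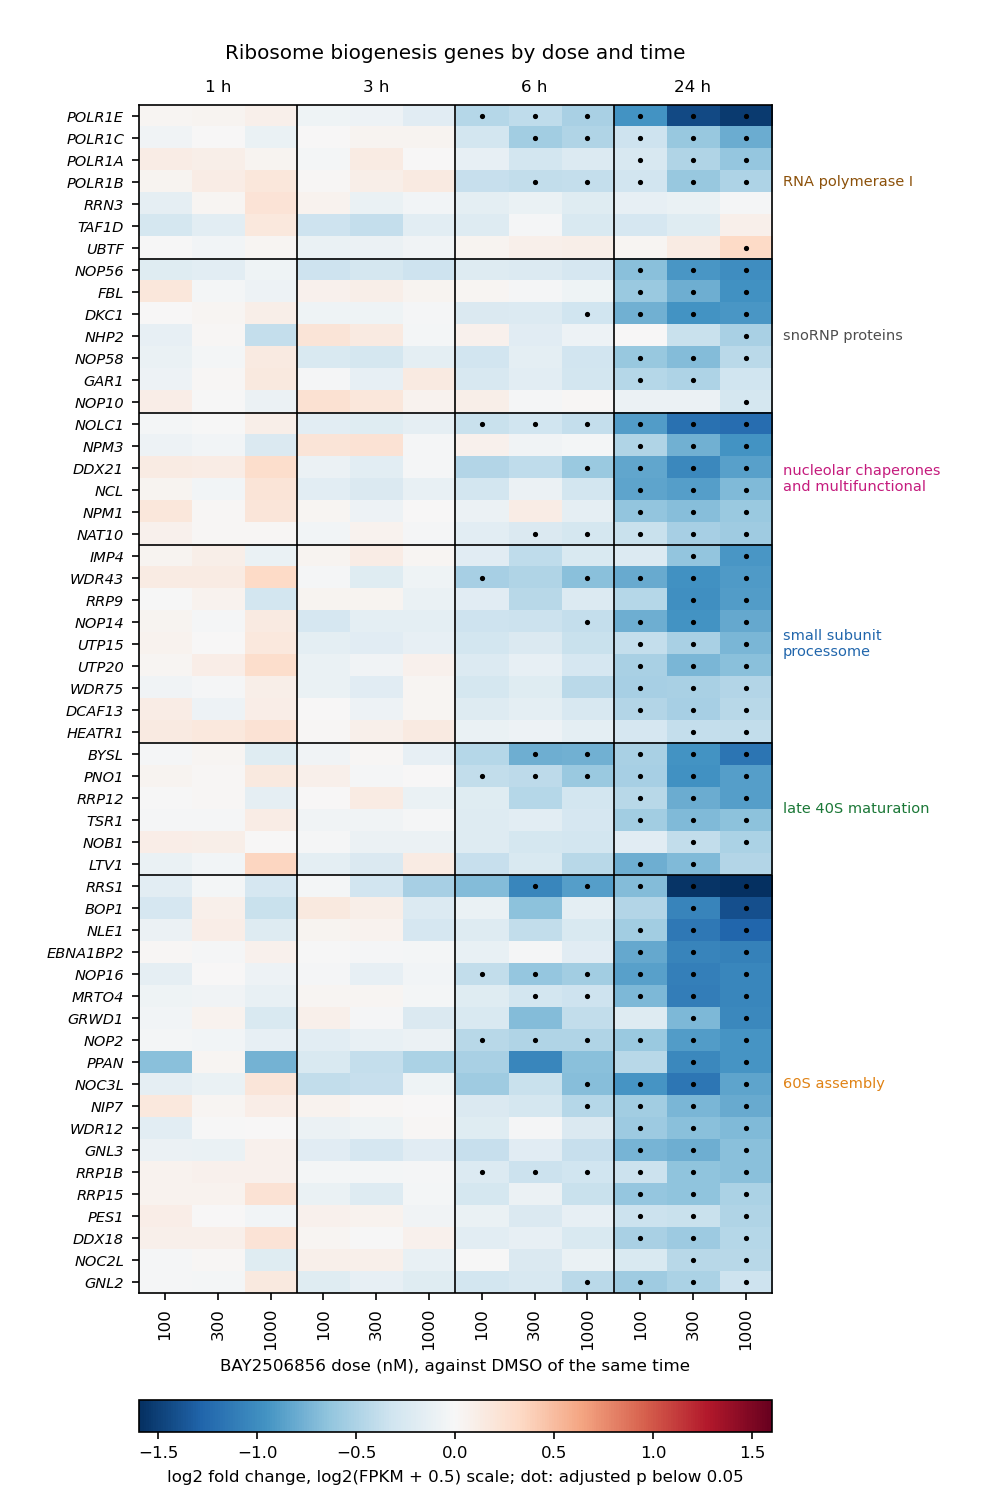
Log2 fold change of each tested member (rows, grouped by role) at each dose and time (columns), against DMSO of the same time. Blue is lower in treated cells, and a dot marks an adjusted p below 0.05. The dots are absent at 1 h and 3 h, cover 7 to 19 members at 6 h and 41 to 50 at 24 h.

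The promoters of these genes are shown because many share a short motif that the choice of members did not use. RefSeq windows (build GRCh38.p14, whereas the expression table was made on hg19) of 250 bases before to 50 bases after a start were matched by symbol for 46 members, with 56 windows. DCAF13, NOP58, POLR1E, RRP12, DDX18, BOP1, RRP1B, RRS1 and NOLC1 had no window. The palindromic E-box CACGTG, the sequence that MYC and MAX and other basic helix-loop-helix factors can bind, occurs in the windows of 22 of the 46 members (47.8%), against 8.77% of all 27305 genes and 12.7% of the 8747 tested genes with a window. CCGGAAG, the core of ETS factor sites, occurs on either strand in 20 of 46 (43.5%), against 12.2% and 23.4%. The plan also listed other motifs, which were not searched. No CACGTG was found in the windows of UBTF, RRN3 and TAF1D, which were not called lower at 1000 nM and 24 h. GAR1 and LTV1, which were not called lower there either, do have CACGTG in their windows. Of the 21 tested members with CACGTG, 19 were lower at 1000 nM and 24 h (median -0.86), and of the 24 without it 21 were (median -0.64). Of the 19 with CCGGAAG, 15 were lower (median -0.79), and of the 26 without it 25 were (median -0.71). These matches describe letters in a window and say nothing of binding.
Printed here are the 6 members named by rule (given with the processing) that have a single start in the table and CACGTG near it. Each runs from 100 bases before to 20 bases from the start on, with CACGTG in capitals. Other members with CACGTG near a start, among them RRP9 and DDX21, are not printed.
FBL: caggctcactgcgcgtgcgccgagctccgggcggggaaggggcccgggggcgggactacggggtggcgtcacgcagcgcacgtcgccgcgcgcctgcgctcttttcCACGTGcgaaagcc
NOP10: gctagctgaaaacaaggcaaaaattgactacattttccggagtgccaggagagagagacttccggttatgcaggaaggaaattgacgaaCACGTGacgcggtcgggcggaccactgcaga
NAT10: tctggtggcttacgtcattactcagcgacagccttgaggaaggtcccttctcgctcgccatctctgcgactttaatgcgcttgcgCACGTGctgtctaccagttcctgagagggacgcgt
WDR43: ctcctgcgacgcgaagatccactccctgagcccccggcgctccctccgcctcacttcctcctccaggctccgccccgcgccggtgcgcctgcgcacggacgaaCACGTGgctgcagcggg
PNO1: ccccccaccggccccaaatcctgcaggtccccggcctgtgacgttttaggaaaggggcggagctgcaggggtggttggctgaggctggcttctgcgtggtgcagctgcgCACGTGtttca
GNL2: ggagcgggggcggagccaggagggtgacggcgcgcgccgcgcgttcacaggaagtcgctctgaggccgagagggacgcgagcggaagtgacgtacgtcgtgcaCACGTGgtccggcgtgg
The windows are chr19:39846360-39846479 (minus strand) for FBL, chr15:34343117-34343236 (minus) for NOP10, chr11:34105529-34105648 (plus) for NAT10, chr2:28894567-28894686 (plus) for WDR43, chr2:68157788-68157907 (plus) for PNO1 and chr1:37595918-37596037 (minus) for GNL2. In NOP10 and NAT10 the E-box lies just upstream of the start, its first base at -11 and -15, and in WDR43, GNL2, FBL and PNO1 it lies in the first transcribed bases, from +4, +4, +7 and +10.

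Of the 7 RNA polymerase I genes, 4 fell at 1000 nM and 24 h, 1 rose and 2 were not called. POLR1E, which encodes a subunit that takes part in initiation, had 5.73, 7.56 and 9.28 FPKM in treated libraries, against a lowest of 20.9, a median of 22.0 and a highest of 24.5 in DMSO. The groups are far apart, and the fold was 2.89-fold lower. On the log2 scale it fell by 1.53 (SE 0.08, adjusted p = 6.83e-21), by 1.44 at 300 nM and by 0.96 at 100 nM. At 6 h the treated libraries at 1000 nM had 14.6, 15.6 and 16.5 FPKM, against 21.6 to 23.3 in DMSO, and POLR1E was called at all 3 doses (-0.46, -0.41 and -0.52 at 100, 300 and 1000 nM). POLR1C, a subunit shared with RNA polymerase III, had 6.74, 8.46 and 8.82 FPKM at 1000 nM and 24 h, against 9.37, 14.7 and 17.0 (lowest, median and highest) in DMSO, and fell by 0.79 (SE 0.10, adjusted p = 1.88e-08). POLR1A, the largest subunit, had 4.96, 6.83 and 5.90 FPKM, against 7.79, 9.74 and 10.4 in DMSO. Its groups do not overlap either, and it fell by 0.62 (SE 0.08, adjusted p = 5.67e-08). POLR1B, the subunit that forms the active centre with POLR1A, fell by 0.49 (adjusted p = 0.000165), with overlapping libraries.

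UBTF, the factor that binds rRNA gene repeats and keeps them open, went the other way. It had 19.5, 18.6 and 19.6 FPKM at 1000 nM and 24 h, against 13.0, 15.5 and 17.7 in DMSO. Every treated library lay above every DMSO library, and UBTF rose by 0.32 (SE 0.08, adjusted p = 0.00117). With only these groups in the fit the call was lost (adjusted p = 0.0533). At 300 nM and 24 h its change was 0.14 (adjusted p = 0.203) and at 100 nM 0.03 (adjusted p = 0.855), and the difference between 1000 and 100 nM was 0.29 (adjusted p = 0.0513). With array weights UBTF was also called higher at 300 nM and 24 h (0.18, adjusted p = 0.000849) and at 1000 nM and 6 h (0.18, adjusted p = 0.0044). RRN3, which joins the polymerase to the promoter factor SL1, was at -0.02 (SE 0.10, adjusted p = 0.927) at 1000 nM and 24 h. TAF1D, a subunit of SL1, was at 0.09 (SE 0.18, adjusted p = 0.744). Neither was called at any dose or time in this fit. With type terms TAF1D was at -0.16 (adjusted p = 0.0697) at 1000 nM and 24 h and was called lower at 300 nM (-0.28, adjusted p = 0.00139), and within type 1 it was called lower at 300 and 100 nM (-0.29 and -0.19). With array weights TAF1D was called lower at 300 nM and 24 h (-0.30, adjusted p = 0.00543) and RRN3 at 1000 nM and 6 h (-0.18, adjusted p = 0.0298). RRN3 has a pseudogene with reads (RRN3P2, mean 3.32 FPKM), which makes its level uncertain.

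The 7 snoRNP proteins held 6 that fell at 1000 nM and 24 h. They guide the site-specific methylation (box C/D) and pseudouridylation (H/ACA) of rRNA. FBL, the box C/D methyltransferase fibrillarin, whose promoter is printed above, had 40.0, 43.3 and 40.7 FPKM, against 78.4, 82.2 and 84.2 in DMSO. The FPKM ranges are well separated, and FBL fell by 0.97 (SE 0.07, adjusted p = 2.53e-16). At 6 h it had 88.4, 92.1 and 86.6 FPKM, within the DMSO range of 80.6 to 103, and its change was -0.07 (adjusted p = 0.997). NOP56, a box C/D core protein, had 14.7, 14.5 and 15.5 FPKM at 24 h, against 29.1, 30.0 and 31.2 in DMSO, and fell by 0.99 (SE 0.11, adjusted p = 2.44e-10). DKC1, the pseudouridine synthase dyskerin, had 20.3, 15.1 and 19.8 FPKM, against 32.1, 35.3 and 41.8 in DMSO, and fell by 0.94 (SE 0.08, adjusted p = 1.01e-13). The least changed was NOP10, an H/ACA core protein, with 109, 117 and 81.3 FPKM, against 108, 122 and 140 in DMSO. Its groups overlap, and its fall of 0.28 (adjusted p = 0.0476) is at the edge of the threshold. Without replicate 3 of the treated group it was -0.13 (adjusted p = 0.501), and the call also ended without treated replicate 1 or DMSO replicate 1, 4, 5 or 6 (adjusted p = 0.0511 to 0.101). Of the other H/ACA proteins, NHP2 fell by 0.51 (adjusted p = 0.0256), and GAR1 was at -0.32 (adjusted p = 0.0587) while called at 100 and 300 nM (-0.45 and -0.50). With type terms GAR1 was called at 1000 nM too (-0.48, adjusted p = 4.23e-05). NOP56 and NHP2 share reads with pseudogenes of mean 33.1 and 27.8 FPKM (NOP56P1 and NHP2P1), which makes their absolute levels uncertain.

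All 6 nucleolar chaperones and multifunctional factors fell at all 3 doses at 24 h. NOLC1, a chaperone of snoRNPs, had 23.2, 20.2 and 26.7 FPKM at 1000 nM, against 51.0, 55.0 and 58.3 in DMSO. The highest treated library is below the lowest DMSO library, and NOLC1 fell by 1.22 (SE 0.08, adjusted p = 3.15e-17), by 1.19 at 300 nM and by 0.90 at 100 nM. It was also called at all 3 doses at 6 h (-0.36, -0.32 and -0.38). NPM3, a nucleoplasmin family chaperone, had 20.8, 21.0 and 17.5 FPKM at 24 h, against 33.4, 38.4 and 45.2 in DMSO, and fell by 0.96 (SE 0.15, adjusted p = 1.06e-06). NPM1, the abundant nucleophosmin, had 213, 157 and 221 FPKM, against 255, 278 and 397 in DMSO. It fell by 0.59 (SE 0.16, adjusted p = 0.00285), and without replicate 2 of the treated group, the only type 1 library there, by 0.43 (adjusted p = 0.0541). With type terms its change was -0.83 (adjusted p = 8.02e-18). The table lists 44 NPM1 pseudogenes, the highest of which (NPM1P27) averages 431 FPKM and NPM1 itself 294, so the reads may be split between them. NCL, the RNA-binding protein nucleolin, had 77.9, 48.5 and 77.3 FPKM, against 90.0, 104 and 162 in DMSO, and fell by 0.71 (SE 0.18, adjusted p = 0.00154), and without treated replicate 2 by 0.48 (adjusted p = 0.0533). With type terms the change of NCL was -1.01 (adjusted p = 6.7e-19). DDX21, an RNA helicase that also binds rRNA genes, fell by 0.86 (adjusted p = 6.37e-07). NAT10, the rRNA cytidine acetyltransferase, changed least of the 6, with 12.2, 11.3 and 12.5 FPKM, against 16.2, 18.2 and 19.8 in DMSO, and a fall of 0.57 (SE 0.05, adjusted p = 1.44e-12).

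All 9 tested members of the small subunit processome, the particle that makes the first cuts in the rRNA precursor, fell at 300 and 1000 nM at 24 h. IMP4, a protein of the U3 snoRNP, had 5.36, 8.61 and 4.30 FPKM at 1000 nM, against 5.88, 13.0 and 15.3 in DMSO. The lowest DMSO value is that of the shallow replicate 2, and the groups overlap through it. IMP4 fell by 0.93 (SE 0.18, adjusted p = 5.7e-05), and with only these groups in the fit the call was lost (adjusted p = 0.0632). WDR43, of the processome's subcomplex that is linked to transcription, had 12.5, 9.18 and 13.2 FPKM, against 19.1, 21.0 and 32.0 in DMSO, and fell by 0.90 (SE 0.14, adjusted p = 5.62e-07). At 6 h it had 15.1, 14.4 and 11.8 FPKM, against 20.0 to 29.9 in DMSO, and fell by 0.67 (adjusted p = 0.00162), and without treated replicate 3 by 0.57 (adjusted p = 0.0628). HEATR1, a large scaffold protein, changed least, with 6.01, 4.83 and 6.99 FPKM, against 6.54, 8.01 and 9.59 in DMSO, and a fall of 0.39 (SE 0.12, adjusted p = 0.00898). Without treated replicate 2 its change was -0.27 (adjusted p = 0.127). With type terms it was -0.54 (adjusted p = 6.71e-07), and with only these groups in the fit the call was lost (adjusted p = 0.109). Falls of the others ranged from 0.45 (DCAF13, which has a pseudogene with reads, DCAF13P1 at 3.69 FPKM) to 0.89 (RRP9, a U3 snoRNP protein). NOP14, with a fall of 0.82, has an annotated antisense gene, and the sources at hand do not state whether reads were counted by strand.

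Of the 6 genes of late 40S maturation, 5 fell at 1000 nM and 24 h. BYSL, the assembly factor bystin, had 14.2, 18.9 and 13.7 FPKM, against 25.7, 37.5 and 39.4 in DMSO. The groups do not overlap, and BYSL fell by 1.17 (SE 0.13, adjusted p = 2.76e-10). With type terms its change was -0.98. At 6 h it had 22.1, 24.9 and 25.2 FPKM, against 33.0, 41.9 and 48.8 in DMSO, and fell by 0.77 (SE 0.13, adjusted p = 7.6e-05). PNO1, the partner of the endonuclease NOB1 that trims the small subunit rRNA, had 8.91, 7.75 and 7.98 FPKM at 24 h, against 13.7, 15.1 and 19.3 in DMSO, and fell by 0.88 (SE 0.08, adjusted p = 1.49e-13). It was called at all 3 doses at 6 h too (-0.40, -0.42 and -0.59). RRP12, a factor in export of the small subunit precursor, fell by 0.88, TSR1, a GTPase-like factor, by 0.66 and NOB1 by 0.51. LTV1, a factor released late from the 40S precursor, had 13.6, 7.50 and 14.8 FPKM, against 12.1, 14.3 and 35.8 in DMSO, and was not called (-0.47, SE 0.27, adjusted p = 0.182). Its replicates 1 and 3 and the highest DMSO library are of type 2, and with type terms its change was -0.88 (adjusted p = 7.49e-08).

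All 19 genes of 60S assembly fell at 300 and at 1000 nM at 24 h, with a median of -0.84 at 1000 nM. RRS1, which helps to build the 5S ribonucleoprotein into the large subunit, had 2.90, 3.47 and 1.39 FPKM at 1000 nM, against 7.25, 8.44 and 10.4 in DMSO. All 3 treated libraries lie below the lowest DMSO library, and RRS1 fell by 1.62 (SE 0.22, adjusted p = 4.9e-08), which is 3.07-fold lower. With type terms its change was -1.39. At 6 h RRS1 had 6.17, 6.11 and 6.46 FPKM, against 8.26, 11.8 and 18.4 in DMSO, and fell by 0.88 (SE 0.22, adjusted p = 0.0184). Leaving out any single treated library ended that call (adjusted p = 0.0791 to 0.104), as did leaving out DMSO replicate 1 (-0.75, adjusted p = 0.0592).

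BOP1, PES1 and WDR12 form a complex needed to process the large subunit rRNA. BOP1 had 7.47, 13.1 and 4.63 FPKM at 1000 nM and 24 h, against 12.5, 25.7 and 28.7 in DMSO. The groups overlap, and BOP1 fell by 1.41 (SE 0.31, adjusted p = 0.000253), and by 0.80 (adjusted p = 0.047) within type 1. At 6 h its libraries overlapped at each dose, with changes of -0.10, -0.66 and -0.16 at 100, 300 and 1000 nM and no call. WDR12 fell by 0.70 and PES1 by 0.49. NLE1, the counterpart of yeast Rsa4, had 2.39, 3.21 and 1.52 FPKM at 24 h, against 5.23, 6.35 and 7.21 in DMSO, and fell by 1.27 (SE 0.18, adjusted p = 7.02e-08).

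MRTO4, which holds the place of the ribosomal stalk during assembly, showed a narrow spread: it had 13.7, 13.4 and 14.7 FPKM at 1000 nM and 24 h, against 27.6, 29.1 and 32.0 in DMSO, and fell by 1.04 (SE 0.07, adjusted p = 5.52e-18). EBNA1BP2, the counterpart of yeast Ebp2, fell by 1.08, NOP16 by 1.04, GRWD1 by 1.03 and NOP2, an rRNA cytosine methyltransferase, by 0.95. GRWD1 had overlapping libraries, and the other 4 did not overlap. These 5 genes, NLE1 and PPAN were chosen after their values were seen. PPAN, whose gene is joined to P2RY11 in a read-through transcript, had the lowest mean level of the tested members, with 0.348, 0.667 and 0.306 FPKM at 1000 nM, against 0.741, 1.45 and 1.74 in DMSO, and fell by 0.95 (SE 0.32, adjusted p = 0.0182). The least changed of the 60S genes was GNL2, a GTPase of the pre-60S particle, with 12.6, 8.66 and 12.5 FPKM, against 12.4, 13.8 and 17.3 in DMSO. Its groups overlap, and it fell by 0.34 (SE 0.11, adjusted p = 0.015). Without treated replicate 2 its change was -0.17 (adjusted p = 0.287), and within type 1, where that library stands alone, -0.62. With only these groups in the fit the call of GNL2 was lost (adjusted p = 0.152).

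**Figure D3:**
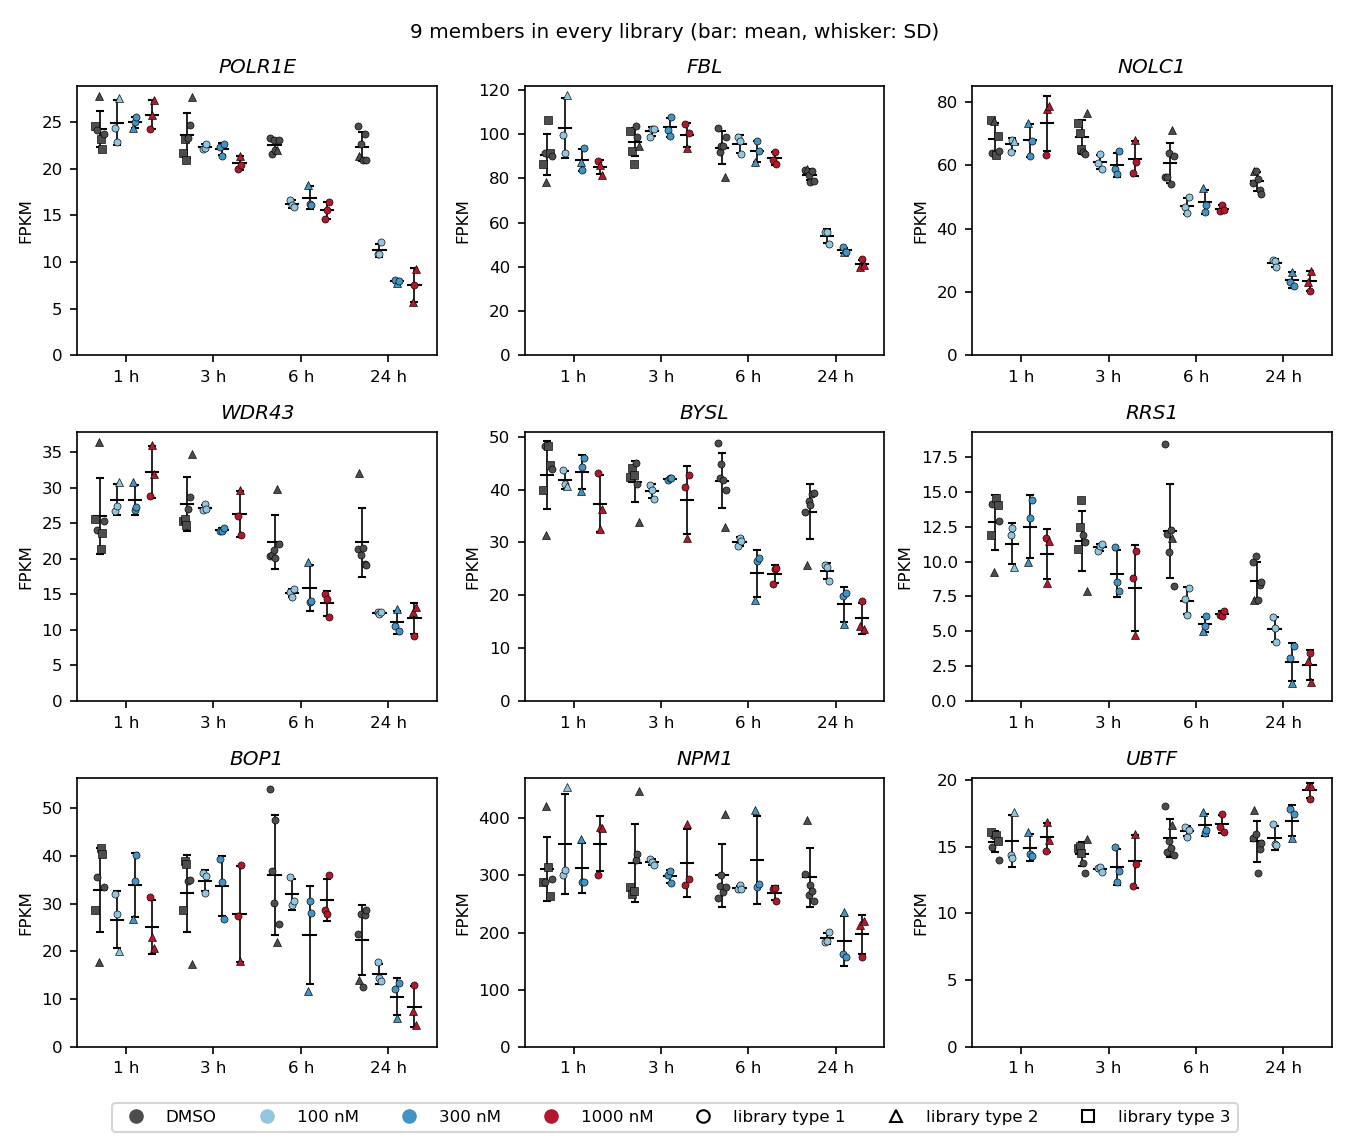
FPKM (y axis) of 9 members in every library, by time, with DMSO and rising dose from left to right at each time. Symbols give the library type, bars the mean and whiskers the SD (3 treated and 6 DMSO libraries). POLR1E stands at 5.73 to 9.28 FPKM at 1000 nM and 24 h, and UBTF at 18.6 to 19.6, above its DMSO libraries.

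Most members had a larger fall at 300 nM than at 100 nM at 24 h, and no member was called between 1000 and 300 nM. The log2 change was more negative at 300 than at 100 nM for 47 of 54 members, at 1000 than at 100 nM for 39, and at 1000 than at 300 nM for 26. These counts depend on the library types. In the same order they were 51, 48 and 33 with type terms, and 51, 51 and 42 within type 1, with its lone library at 1000 nM. All changes against DMSO share the DMSO libraries of 24 h, so the doses were also compared with each other. Between 1000 and 100 nM, 14 members were lower and 0 higher, against 2.86% of all genes called lower. RRS1 had 2.90, 3.47 and 1.39 FPKM at 1000 nM, against 6.00, 5.20 and 4.21 at 100 nM, and was lower by 0.93 (SE 0.25, adjusted p = 0.0226). BYSL had 14.2, 18.9 and 13.7 FPKM at 1000 nM, against 25.7, 25.3 and 22.8 at 100 nM (-0.65, SE 0.15, adjusted p = 0.00445). FBL had 40.0, 43.3 and 40.7 FPKM at 1000 nM, against 55.7, 55.9 and 50.1 at 100 nM (-0.38, SE 0.08, adjusted p = 0.00167). In these genes each library at 1000 nM is below each library at 100 nM. Replicates 1 and 3 at 1000 nM are of type 2 and all libraries at 100 nM of type 1, so dose and library type are partly mixed in these values. The most negative change of any member here was -0.62 with type terms and -0.54 within type 1. The differences of RRS1 and BYSL were thus smaller in those fits. The count of 14 was 6 to 9 without any 1 of the 3 libraries at 100 nM and 7 without treated replicate 1 or 3, 25 with type terms (4.68% of all genes called lower), and 0 when only the 2 groups entered the fit.

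Between 300 and 100 nM at 24 h, 4 members were lower, POLR1E, PNO1, MRTO4 and RRP1B, against 0.813% of all genes. With type terms 20 were lower (2.74% of all genes), and with only the 2 groups in the fit 0. POLR1E had 8.05, 7.79 and 7.91 FPKM at 300 nM, against 10.8, 10.9 and 12.1 at 100 nM, and was lower by 0.48 (SE 0.09, adjusted p = 0.00129). Between 1000 and 300 nM limma called 0 members at 24 h, with 1 below an unadjusted p of 0.05, and voom also called 0. The fit with array weights called 34 there (13 lower, 21 higher), and 47.5% of all genes. In the limma fit without weights, RRS1 was at -0.05 (SE 0.25, adjusted p = 0.967) and POLR1E at -0.09 (SE 0.09, adjusted p = 0.905) between 1000 and 300 nM. At 6 h limma called 0 members between any pair of doses, with 3, 4 and 0 below an unadjusted p of 0.05 (1000 against 100 nM, 300 against 100 nM and 1000 against 300 nM).

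Most members had a larger fall at 24 h than at 6 h. The 24 h change was more negative than the 6 h change in 49, 51 and 50 of 54 members at 100, 300 and 1000 nM, and the 2 times have their own DMSO libraries. Across the 54 members the changes at 6 h and 24 h had a Pearson r of 0.60, 0.58 and 0.48 at the 3 doses, as a description, since genes share libraries and are not replicates. All members called at 6 h were also called lower at 24 h at the same dose, which is 100% of the 7, 12 and 19 and 17.1%, 24.5% and 38.8% of those at 24 h. Since 41, 49 and 49 of the 54 were called lower at 24 h, most of any such subset would be among them. The 6 called at all 3 doses at both times were POLR1E, NOLC1, PNO1, NOP2, NOP16 and RRP1B.

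In the test of the difference, the 1000 nM effect was more negative at 24 h than at 6 h in 20 members, against 6.95% of all genes, and less negative in 0. In this fit BOP1 differed most, by -1.25 (SE 0.44, adjusted p = 0.0435), followed by NLE1 at -1.02, POLR1E at -1.01 (SE 0.11, adjusted p = 2.35e-09), NPM3 at -0.93 and FBL at -0.90 (SE 0.10, adjusted p = 7.72e-10). BOP1's rank depends on the library types. With type terms its change at 1000 nM was -0.995 at 24 h and -0.296 at 6 h, while the most negative difference of any member was -1.06. The 300 nM effect was more negative at 24 h in 23 members (6.47% of all genes) and the 100 nM effect in 7 (1.83%). Between 3 h and 6 h the 1000 nM effect grew in 1 member, against 0.189% of all genes. That was PNO1, with 19.1 to 19.9 FPKM at 1000 nM and 3 h, against 17.9 to 20.8 in DMSO, and with 11.5, 10.4 and 12.7 FPKM at 6 h, against 16.7, 17.6 and 18.6 in DMSO (difference of the effects -0.60, SE 0.11, adjusted p = 0.00117). RRS1 and BYSL, both called at 6 h, did not pass the test of 24 h against 6 h (RRS1 -0.74, SE 0.31, adjusted p = 0.105, and BYSL -0.40, SE 0.18, adjusted p = 0.149).

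**Figure D4:**
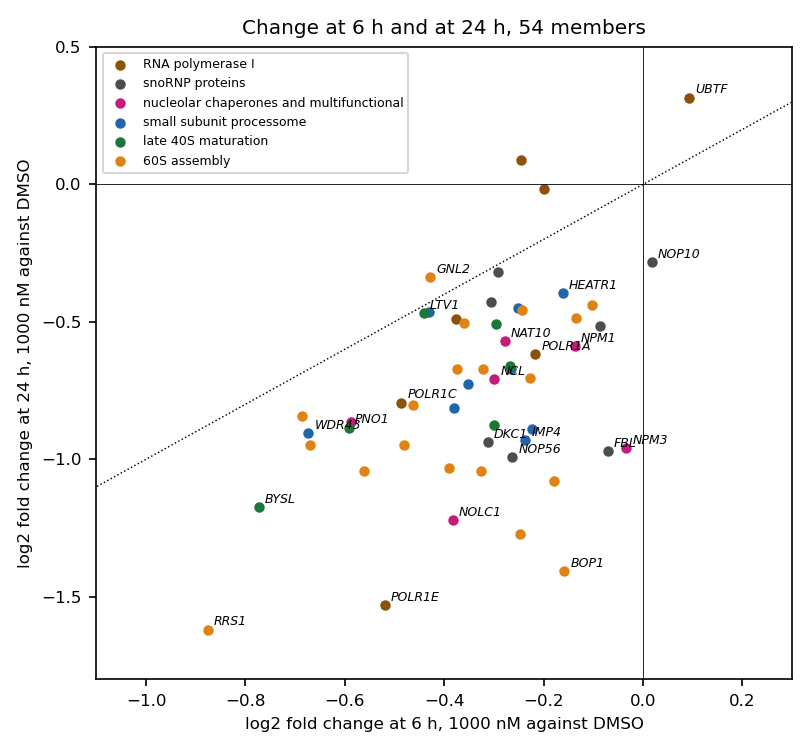
Log2 fold change of the 54 members at 1000 nM against DMSO, at 6 h (x axis) and 24 h (y axis), coloured by role, with the members named by rule labelled. The dotted line marks equal change. 50 points lie below it, FBL and NPM3 near 0 on the x axis, and UBTF lies above 0 on the y axis.

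DMSO cells changed with time as well. At 24 h against 1 h, 24 members were lower and 0 higher, where 8.45% of all genes were called lower, with a median of -0.28 in the members and -0.02 in all genes. NOP56 had 29.1, 30.0 and 31.2 FPKM (lowest, median and highest) in DMSO at 24 h, against 36.1, 46.4 and 56.0 at 1 h, and fell by 0.59 (SE 0.09, adjusted p = 2.06e-06). At 1 h its type 3 libraries had 51.4, 56.0 and 52.2 FPKM and the others 41.5, 40.6 and 36.1. Time and library type are thus partly mixed in this fall. RRP12 had 3.63, 5.63 and 6.39 FPKM at 24 h, against 7.10, 9.34 and 10.3 at 1 h, and fell by 0.71 (SE 0.11, adjusted p = 7.04e-06). The groups of both genes do not overlap. POLR1E, with the steepest fall under treatment in its role group, had 20.9, 22.0 and 24.5 FPKM at 24 h, against 22.1, 24.0 and 27.8 at 1 h, and was not called (-0.12, SE 0.07, adjusted p = 0.235). The DMSO libraries at 1 h include 3 of type 3, and with type terms 39 members were lower (11.0% of all genes) and 1 higher. The comparisons with DMSO above are within a time, so this change is not part of them.

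Beside the 55, 118 further genes of the pathway were listed, and 116 were tested. At 24 h, 59, 70 and 66 of them were lower at 100, 300 and 1000 nM and 1 was higher at each dose, with medians of -0.33, -0.45 and -0.44. Over all genes 9.2%, 14.2% and 15.6% were called lower. At 6 h, 5, 11 and 13 were lower, against 0.655%, 1.11% and 1.3% of all genes. By role at 1000 nM and 24 h, 5 of 9 further RNA polymerase I genes, 8 of 9 snoRNP assembly genes, 18 of 40 processome and 40S genes, 28 of 44 genes of 60S assembly and export and 7 of 14 exosome genes were lower. The steepest falls were those of EXOSC5, an exosome subunit whose libraries overlap (-1.45, SE 0.29, adjusted p = 7.47e-05), URB2, a 60S assembly factor (-1.45, SE 0.09, adjusted p = 1.03e-17), and CD3EAP, the RNA polymerase I subunit that pairs with POLR1E (-1.28, SE 0.10, adjusted p = 1.77e-14). CD3EAP had 3.02 to 3.56 FPKM in the 3 treated libraries, against 5.64, 9.24 and 10.6 in DMSO. RIOK3, a kinase linked to late 40S maturation, was the one that rose, with 20.3, 24.5 and 28.7 FPKM, against 11.5, 12.1 and 12.5 in DMSO (0.98, SE 0.12, adjusted p = 5.75e-09), and it was called higher at all 3 doses. C1D, an exosome cofactor, was at 0.31 (adjusted p = 0.179) and UTP3, a processome protein, at 0.19 (adjusted p = 0.31, and -0.24 within type 1). Without treated replicate 2, C1D was at 0.50 (adjusted p = 0.0466).

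The library types move with several of these values. At 24 h, with type terms 46, 50 and 49 members were lower at 100, 300 and 1000 nM, where 13.8%, 19.8% and 20.5% of all genes were. Within type 1 the counts were 49, 49 and 47, where 16.7%, 20.5% and 17.8% of all genes were lower. UBTF was called higher at 1000 nM with type terms (0.24) and was at 0.31 within type 1. Within type 1, 1 member was also called higher at 300 nM (0.23). At 6 h, 18, 27 and 29 members were lower with type terms (1.54%, 3.09% and 2.79% of all genes) and 22, 28 and 34 within type 1 (2.26%, 3.14% and 4.36%). These fits call more of all genes too. Of the members described, NHP2 and NOP10 were not called at 1000 nM and 24 h with type terms (-0.27, adjusted p = 0.0697, and -0.13, adjusted p = 0.137), and IMP4 was at -0.60 within type 1 (adjusted p = 0.00035).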

How the data were processed

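Libraries were made from polyadenylated RNA with a strand-marking kit and read from 1 end, per the labels' protocols. The submitters' processing notes name STAR 2.4.2a, featureCounts 1.4.6-p2, Subread and DESeq2 and the build hg19, with no role or order. The authors deposited the values as log2(FPKM + 1) per gene name, judged from the table's name and from the values, whose steps are whole reads on that scale, and FPKM was taken back from them. Genes with at least 1 FPKM in 3 or more of 60 libraries (15866 of 36114 above 0) were tested on log2(FPKM + 0.5) with limma 3.58.1 (R 4.3.3): 1 mean for each of 16 groups over all libraries, 44 residual degrees of freedom, trended and robust empirical Bayes, 26 two-sided comparisons, each adjusted by Benjamini-Hochberg over all genes. Whole reads were recovered from the FPKM steps of each library, which share its depth: 1304036 of 1304094 values above 0 came out within 0.01 read of a whole number, and limma-voom on them was an alternative. Depth limits low members most: 13 had under 20 reads in some library. No pair of libraries in a group agreed within sampling noise (96 pairs, chi-square per degree of freedom 1.55 or more). The fit was tested on simulated data. Library types were told apart by values after inspection of the table.

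The 55 members, the lists and the tests were chosen with earlier results of these data known. Genes named are the 2 lowest and the highest of each role group at 1000 nM and 24 h, RRS1, NOLC1, BOP1, NPM1, NCL, FBL, POLR1A and DKC1, members called higher, members called at 1 h or 3 h (none), and the 3 lowest and 3 highest further pathway genes. Other members were described after their values were seen. Alternatives were a pseudocount of 0.1, the deposited scale, no filter, 2 other scalings, array weights, only the groups compared, library type terms, type 1 only, no libraries under 2000000 reads, voom, and leaving out each library.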

Additional observations from a re-analysis of the deposited data

Results flagged for a closer look

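In 22 of 88 DMSO groups of 6 libraries checked (22 named members at 4 times), 1 library stood apart from the other 5. Chance alone gives about 1 in 20 for independent groups. The 22 members were read in the same libraries, so the 88 groups are not independent and the 2 rates cannot be set against each other. All 22 values come from the 4 DMSO libraries of type 2: 1 h replicate 3, 3 h replicate 6, 6 h replicate 5 and 24 h replicate 2. Whether the type accounts for them was not tested.

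High values in those libraries came from 7 members. NCL stood out in all 4, with 184.0, 183.7, 179.1 and 161.6 FPKM in order of time, and so did LTV1, with 30.59, 31.7, 26.15 and 35.79 FPKM. NPM1 was at 421.3 FPKM at 1 h, 407.8 at 6 h and 397.1 at 24 h. WDR43 was at 36.46 FPKM at 1 h, 29.86 at 6 h and 32.01 at 24 h. At 3 h HEATR1 was at 9.867, GNL2 at 18.77 and DKC1 at 51.71 FPKM. Low values came from 4 members. BYSL was at 33.91 FPKM at 3 h and 25.73 at 24 h, and IMP4 at 13.31 at 3 h. At 6 h POLR1C was at 13.37 and NOP10 at 100.8 FPKM.

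The effect of 1000 nM differed between times, by the test of the difference, in 10 named members. Between 6 h and 3 h PNO1 differed by -0.6045 on the log2 scale. Between 24 h and 6 h the difference was -1.248 for BOP1, -1.012 for POLR1E, -0.9265 for NPM3, -0.901 for FBL, -0.8392 for NOLC1, -0.7293 for NOP56, -0.6241 for DKC1, -0.3999 for POLR1A and -0.292 for NAT10.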

How the results depend on the processing

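At 1000 nM and 24 h the 22 named members kept their direction under the alternatives run, as did the 6 named further genes except UTP3 (0.19, not called), which was at -0.24 within type 1 and -0.0051 with voom. Of these 560 values, 534 kept direction and side of the threshold, 20 lost the call and 4 gained it, among them C1D with array weights (0.64). For the members at 6 h the numbers were 398, 23 and 12 of 440, and 7 changed sign, none of them called: NOP10 (0.02) was at -0.042 with array weights, -0.033 with type terms, -0.039 within type 1, -0.0035 with voom, -0.025 without treated replicate 3 and -0.039 without DMSO replicate 5 (up to 0.079 without treated replicate 1), and NPM3 (-0.03) was at 0.036 without DMSO replicate 1 (down to -0.097 without DMSO replicate 5). Of 784 counts of calls, 686 stayed within 1.5 times and 98 did not. The causes were not tested. No scaling moved the median of all genes by over 0.1.

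Counts of members called moved as follows, doses in the order 100, 300 and 1000 nM. With array weights, a fit that gave a convergence warning, 33 were called at 1000 nM and 1 h (12 lower, 21 higher), 13, 11 and 15 at 3 h and 32, 38 and 42 at 6 h, where it called 40.2%, then 23.3%, 19.3% and 24.0%, then 7.42%, 13.3% and 13.6% of all genes. It called 15 between 1000 and 100 nM at 1 h, 2 at 6 h and 31 at 24 h, 34 between 300 and 100 nM and 34 between 1000 and 300 nM at 24 h, 28, 26 and 34 in the 1000 nM effect (3 minus 1 h, 6 minus 3 h, 24 minus 6 h), 44 and 34 in the 24 minus 6 h effect of 300 and 100 nM, and 41 in DMSO at 24 h against 1 h. In the same order it called 19.6%, 0.334%, 44.3%, 14.2%, 47.5%, 29.3%, 19.8%, 43.7%, 36.3%, 20.9% and 30.6% of all genes. With only the groups compared, the counts were 3, 3 and 6 at 6 h, 0 between 1000 and 100 nM and 0 between 300 and 100 nM at 24 h, 12 and 10 in the 24 minus 6 h effect of 1000 and 300 nM, and 13 in DMSO. With type terms they were 18, 27 and 29 at 6 h, 25 and 20 between 1000 or 300 and 100 nM at 24 h, 9 in 6 minus 3 h, 34, 35 and 19 in 24 minus 6 h (1000, 300, 100 nM) and 40 in DMSO. Within type 1 they were 22, 28 and 34 at 6 h, 1 between 1000 and 100 nM at 6 h, 18 between 300 and 100 nM at 24 h, 10 in 6 minus 3 h and 36, 38 and 28 in 24 minus 6 h. At 100 nM and 6 h, 4 were called with upper quartile scaling, 12 without libraries under 2000000 reads and 15 with voom, and the last 2 settings gave 3 and 4 in 6 minus 3 h. Apart from array weights, and from type terms and type 1 where stated above, the shares of all genes called are not given for these settings. Such counts alone do not show whether the members moved more than genes in general.

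Of the 116 further pathway genes tested, array weights called 60 at 1000 nM and 1 h, 21, 20 and 34 at 3 h, 40, 50 and 54 at 6 h and 91 at 100 nM and 24 h. In the same order it called 40.2%, then 23.3%, 19.3% and 24.0%, then 7.42%, 13.3% and 13.6%, then 40.3% of all genes. Only the groups compared gave 1, 1 and 2 at 6 h and 47 and 41 at 300 and 1000 nM and 24 h, type terms 16, 34 and 37 at 6 h, and type 1 alone 22, 31 and 40. At 6 h, 100 and 300 nM, the counts were 3 and 7 with upper quartile scaling and 9 and 17 without libraries under 2000000 reads, and 11 at 100 nM with voom. The limit stated for the members, on settings without shares of all genes, holds here too.

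Leaving out 1 library gave 3 to 7, 10 to 13 and 11 to 18 members at 6 h (12 without replicate 1 and 11 without replicate 3 at 1000 nM, and 3, 3 and 4 without replicates 1, 2 and 3 at 100 nM) and 33 to 41, 43 to 49 and 41 to 50 at 24 h. Between 1000 and 100 nM at 24 h it gave 6 to 19 members (7, 6 and 9 without 100 nM replicates 1, 2 and 3, and 7 without 1000 nM replicate 1 or 3), between 300 and 100 nM 4 to 5, in 6 minus 3 h 1 to 2 (2 without DMSO 3 h replicate 6), in 24 minus 6 h 15 to 25, 18 to 26 and 6 to 8 (1000, 300, 100 nM), in DMSO 21 to 26, and 0 in each other comparison. For the further genes it gave 1 to 5, 6 to 10 and 5 to 14 at 6 h and 41 to 60, 60 to 73 and 61 to 72 at 24 h. Those at 6 h fell beyond 1.5 times without any 1 treated library, and without DMSO replicate 5 at 1000 nM (8) or DMSO replicates 3, 4 or 5 at 100 nM (2, 3 and 3). No paired analysis was possible because the labels give no replicate numbers and those used here follow accession order. Depth limits PPAN most, with a median of 36.5 reads, and levels of members with expressed pseudogenes are uncertain.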
